A study of Homo sapiens with 6 samples.

Results

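A group of 8 genes of the RAS-MAPK pathway and of its feedback loop was followed through the libraries of 2 colorectal cancer cell lines, SW480 and DLD-1. They are the receptor EGFR, the small GTPases NRAS and HRAS, the kinase BRAF, the inhibitors DUSP6 and SPRY2, and the transcription factors ETV4 and ETV5. They were selected by gene symbol, and all 8 were found among the 58302 genes of the expression table. NAT10 is the enzyme that acetylates cytidine in RNA to N4-acetylcytidine (ac4C). The series asked which transcripts were bound by NAT10 and which carried ac4C. For this purpose, RNA pulled down with an antibody to NAT10 (RIP), RNA fragments pulled down with an antibody to ac4C (acRIP) and RNA taken before the pulldown (Input) were sequenced. The 6 libraries made up 6 groups of 1 library each, namely Input, RIP and acRIP of SW480 and of DLD-1. Both lines were wild type by their labels, received no treatment and were grown in the same serum-containing medium. No group had a replicate. A difference between 2 libraries therefore has no replicate check, and the errors given below cover the counting of reads only.

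The RAS-MAPK pathway carries a growth factor signal from the cell surface to the nucleus. Ligand-bound receptors such as EGFR load RAS proteins with GTP, active RAS recruits RAF kinases such as BRAF, and these switch on MEK and then ERK. ERK activity raises the transcription of a set of target genes, among them DUSP6, SPRY2, ETV4 and ETV5. The DUSP6 phosphatase removes the activating phosphates from ERK and SPRY2 restrains signalling near the receptor, which closes a negative feedback loop. ETV4 and ETV5 are related ETS-family factors that carry the signal on to further genes. The pathway is active in many colorectal tumours.

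The depth behind the values was recovered from the steps of the FPKM values (a fragment count corrected for transcript length and library size), and came to at least 26245762 reads in RIP SW480, 11931422 in Input SW480, 21773924 in RIP DLD-1 and 11178713 in Input DLD-1. The depth of the acRIP libraries is unknown. Of 6 epithelial marker genes, 5 reached 1 FPKM in both Inputs, and the summed level of the epithelial list was 907 to 3308 FPKM over the columns. The leukocyte, endothelial and fibroblast lists summed to at most 0.415, 0.808 and 0.381 FPKM, with CD3E at 0 throughout. The mRNA of NAT10 itself stood at 21.2 FPKM in Input SW480 and 23.0 FPKM in Input DLD-1. The libraries did not pair by their labels. Across 16196 protein-coding genes, which are not independent replicates, the library labelled RIP SW480 had a Pearson correlation of 0.871 with Input SW480 and of 0.944 with Input DLD-1. The library labelled RIP DLD-1 had a correlation of 0.856 with Input DLD-1 and of 0.951 with Input SW480. RIP values below are therefore set against the Input of the same label and also against the other label's Input, that is, with the labels crossed. Where 2 ratios of a gene are given together, the former is that of the library labelled RIP SW480 and the latter that of RIP DLD-1. Whether labels were exchanged, and on which libraries, was not tested. A second pair of columns gave Input levels of both lines in the acRIP table. Their line order was opposite to that of the RIP-table Inputs for 16.8% of the 12324 genes tested. It was the same for 8 of the 8 genes studied here. The labels name 1 Input library per line, so both pairs of columns may not be independent. The genes tested were those with an Input level of at least 1 FPKM in both lines, a filter that all 8 genes passed.

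To compare the steady-state levels of the pathway, the Input libraries were examined. EGFR, the epidermal growth factor receptor (chromosome 7, 55019017 to 55211628, RefSeq annotation of GRCh38.p14), stood at 30.2 FPKM in Input SW480 and 27.6 FPKM in Input DLD-1. Its 4334 and 3661 reads gave a log2 difference of 0.12 ± 0.03 (counting SE, SW480 minus DLD-1, on the log2(FPKM + 1) scale). EGFR was thus close to even between the lines and varied least of the 8 genes between the Inputs on this scale.

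The genes of the RAS-RAF step were lower than the receptor. NRAS (chromosome 1, 114704469 to 114716771) stood at 9.03 FPKM in Input SW480 and 11.9 FPKM in Input DLD-1, a log2 difference of -0.37 ± 0.07. HRAS (chromosome 11, 532242 to 535576) ran the other way, with 14.0 FPKM in Input SW480 and 8.11 FPKM in Input DLD-1, a log2 difference of 0.72 ± 0.14. The RAS paralogs thus had opposite orders, with NRAS lower and HRAS higher in the Input labelled SW480. BRAF (chromosome 7, 140713328 to 140924929), the kinase that RAS activates, followed HRAS with 11.9 and 5.69 FPKM and a log2 difference of 0.95 ± 0.06.

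Of the feedback genes, the inhibitors DUSP6 and SPRY2 were higher in the Input labelled SW480. DUSP6 (chromosome 12, 89347235 to 89352501) had 38.9 FPKM there and 27.8 FPKM in Input DLD-1, a log2 difference of 0.47 ± 0.04. SPRY2 (chromosome 13, 80335976 to 80341126) had 14.9 and 8.70 FPKM, a log2 difference of 0.72 ± 0.09. ETV4 and ETV5 were higher in the Input labelled DLD-1 and were furthest apart of the 8 genes. ETV4 (chromosome 17, 43527846 to 43546340) had 19.9 FPKM in Input SW480 and 53.5 FPKM in Input DLD-1, 2.69-fold more. ETV5 (chromosome 3, 186046314 to 186109089) had 18.8 and 45.9 FPKM, 2.45-fold more. Their log2 differences were -1.38 ± 0.06 for ETV4 and -1.25 ± 0.05 for ETV5.

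At a threshold of 2-fold on the log2(FPKM + 1) scale, 0 of the 8 genes were higher in the Input labelled SW480, where 7.25% of the 12324 genes tested were, and 2 of 8, ETV4 and ETV5, were lower, where 9.29% were. The median log2 difference was 0.30 over the 8 genes and -0.03 over all genes tested. In the acRIP table, with levels as given, the same contrast gave -1.24 for ETV4 and -1.31 for ETV5, or 2.46-fold and 2.60-fold more in the column labelled DLD-1. BRAF was at 0.78, SPRY2 at 0.84, HRAS at 0.74, DUSP6 at 0.36, EGFR at 0.28 and NRAS at -0.32 there, all in the same direction as in the RIP table. HRAS, DUSP6 and ETV4 overlap protein-coding genes or read-through transcripts (LRRC56, POC1B-DUSP6 and DHX8), and EGFR and ETV5 overlap long non-coding RNAs, so that without a stated strand setting reads shared with these cannot be told apart. In bulk RNA, a change in the number of cells that express a gene and a change in RNA per cell cannot be told apart.

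The order of the 8 levels also differed between the Inputs. In Input SW480, DUSP6 was highest, followed by EGFR, ETV4, ETV5, SPRY2, HRAS, BRAF and NRAS. In that order the exact Poisson 95% intervals of neighbours overlapped for ETV4 and ETV5 (18.4 to 21.4 and 17.7 to 19.9 FPKM), for SPRY2 and HRAS, and for HRAS and BRAF. In Input DLD-1, ETV4 and ETV5 led with intervals that did not overlap (51.0 to 56.0 and 44.1 to 47.7 FPKM), followed by DUSP6, EGFR, NRAS, SPRY2, HRAS and BRAF. The neighbours DUSP6 and EGFR, and SPRY2 and HRAS, overlapped there. NRAS therefore ranked last of the 8 in Input SW480 and above SPRY2, HRAS and BRAF in Input DLD-1.

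**Figure D1:**
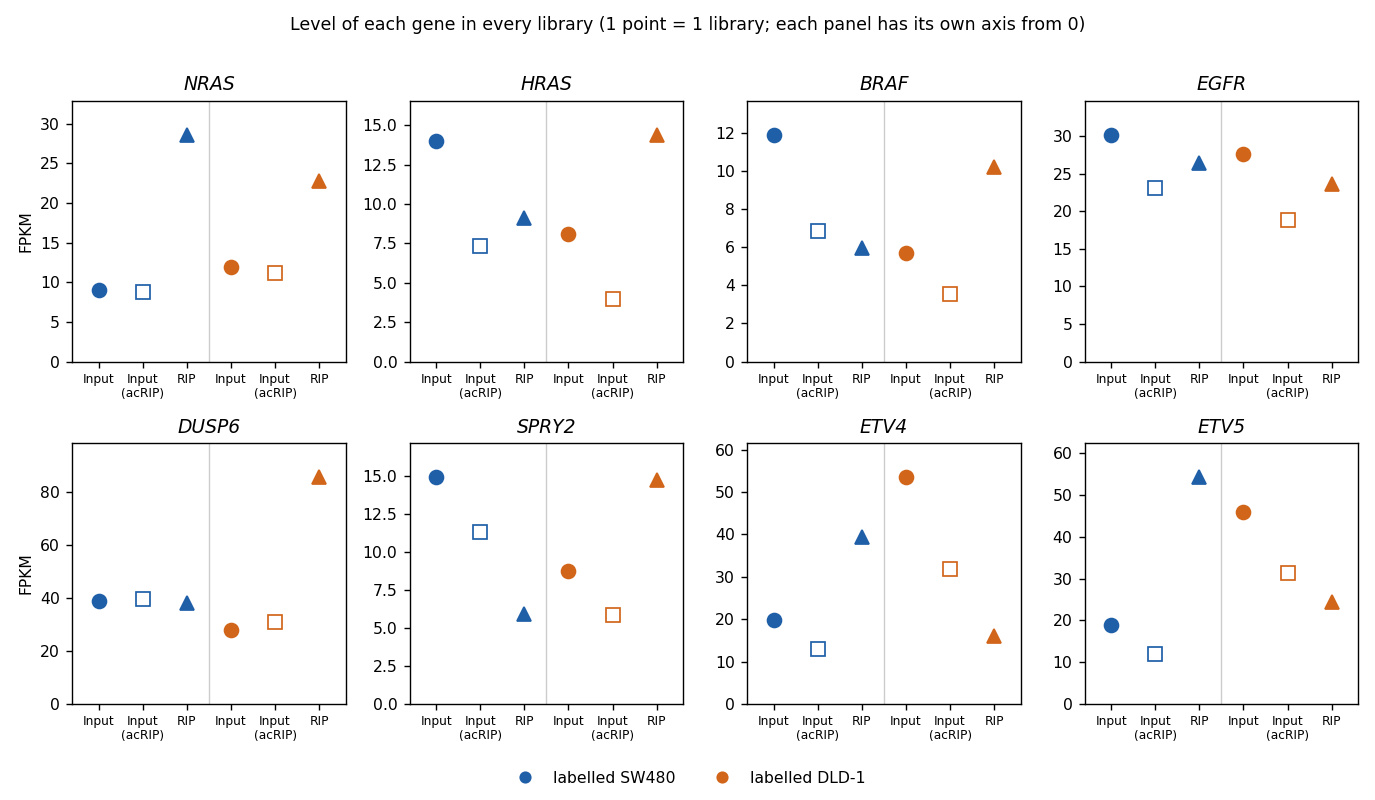
FPKM of each of the 8 genes, 1 point per column, with the Input, the Input as given in the acRIP table (open squares) and the NAT10 RIP library (triangles). Columns labelled SW480 are in blue and those labelled DLD-1 in orange, on an axis that starts at 0 in each panel. The labels name 1 Input library per line, to which both Input columns of that line were assigned. NRAS has both RIP points above all Input points, and ETV4 and ETV5 have high Input with DLD-1 and high RIP with SW480.

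To compare the NAT10 pulldown with Input, the level in each RIP library was set against the Inputs. No pulldown with a control antibody was among the 6 libraries. Binding by NAT10 therefore cannot be told apart from unspecific pulldown in these ratios. NRAS stood at 28.6 FPKM in RIP SW480 and 22.8 FPKM in RIP DLD-1, against 9.03 and 11.9 FPKM in the Inputs. Both RIP libraries were above both Inputs, so that NRAS was higher in RIP whichever Input was used. This held for 1 of the 8 genes and for 26.6% of all genes tested. Against the Input of the same label, its log2 ratio was 1.56 ± 0.06 with the SW480 labels, from 3771 RIP and 587 Input reads, and 0.88 ± 0.06 with the DLD-1 labels, from 2556 and 716 reads. Against the other label's Input, the ratios of NRAS came to 1.20 ± 0.05 and 1.25 ± 0.06, nearly the same in both RIP libraries. Its levels in the acRIP-table Inputs, 8.76 and 11.2 FPKM, were also below both RIP libraries. Scaled to the median of the RIP-table Inputs, they came to 12.9 and 17.1 FPKM, still below both RIP libraries, with log2 ratios of 1.09 and 0.40 for the same label.

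HRAS, the other RAS gene, stood at 9.12 FPKM in RIP SW480 and 14.4 FPKM in RIP DLD-1, against 14.0 and 8.11 FPKM in the Inputs. The RIP and Input values overlapped. The log2 ratio of HRAS to the Input of the same label was -0.57 ± 0.11 with the SW480 labels and 0.76 ± 0.13 with the DLD-1 labels. To the other label's Input it was 0.15 ± 0.13 and 0.04 ± 0.11, within the counting error of no difference at 95%.

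BRAF stood at 5.94 FPKM in RIP SW480 and 10.2 FPKM in RIP DLD-1, against 11.9 and 5.69 FPKM in the Inputs. Its RIP values thus lay close to those of the Input of the other label. The log2 ratio was -0.90 ± 0.05 and 0.74 ± 0.06 with the labels as given, and 0.05 ± 0.06 and -0.21 ± 0.05 against the other label's Input. EGFR, with 26.4 and 23.6 FPKM in RIP and 30.2 and 27.6 FPKM in the Inputs, was the only one of the 8 genes with both RIP libraries below both Inputs, a position held by 26.5% of all genes tested. Its log2 ratio was -0.19 ± 0.03 and -0.22 ± 0.03, and -0.06 ± 0.03 and -0.34 ± 0.03 against the other label's Input. In the acRIP-table Inputs EGFR stood at 23.1 and 18.8 FPKM as given, below both RIP libraries, and at 34.0 and 28.8 FPKM after scaling, above both, so that its direction against those Inputs turned with the scaling.

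Among the feedback inhibitors, DUSP6 stood at 38.1 FPKM in RIP SW480 and 85.8 FPKM in RIP DLD-1, against 38.9 and 27.8 FPKM in the Inputs. One library, RIP DLD-1, was high, and the other 3 lay between 27.8 and 38.9 FPKM. The log2 ratio was -0.03 ± 0.03 with the SW480 labels and 1.59 ± 0.04 with the DLD-1 labels, and 0.44 ± 0.04 and 1.12 ± 0.03 against the other label's Input. With the acRIP-table Inputs of its own label, scaled, the ratios of DUSP6 were -0.61 and 0.85. SPRY2 stood at 5.91 FPKM in RIP SW480 and 14.7 FPKM in RIP DLD-1, against 14.9 and 8.70 FPKM in the Inputs. Its RIP level was low where the Input of the same label was high, with log2 ratios of -1.21 ± 0.08 and 0.70 ± 0.08, and of -0.49 ± 0.09 and -0.02 ± 0.07 against the other label's Input.

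ETV4 stood at 39.3 FPKM in RIP SW480 and 16.1 FPKM in RIP DLD-1, against 19.9 and 53.5 FPKM in the Inputs. The factor was therefore high in RIP SW480 and Input DLD-1 and low in the other two libraries. Its log2 ratio was 0.95 ± 0.06 and -1.67 ± 0.05 with the labels as given, and -0.43 ± 0.04 and -0.29 ± 0.07 against the other label's Input. ETV5 was likewise high in RIP SW480 and Input DLD-1, with 54.3 and 24.4 FPKM in RIP against 18.8 and 45.9 FPKM in the Inputs. Its log2 ratio was 1.48 ± 0.04 and -0.89 ± 0.04 with the labels as given, and 0.24 ± 0.03 and 0.36 ± 0.05 against the other label's Input.

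**Figure D2:**
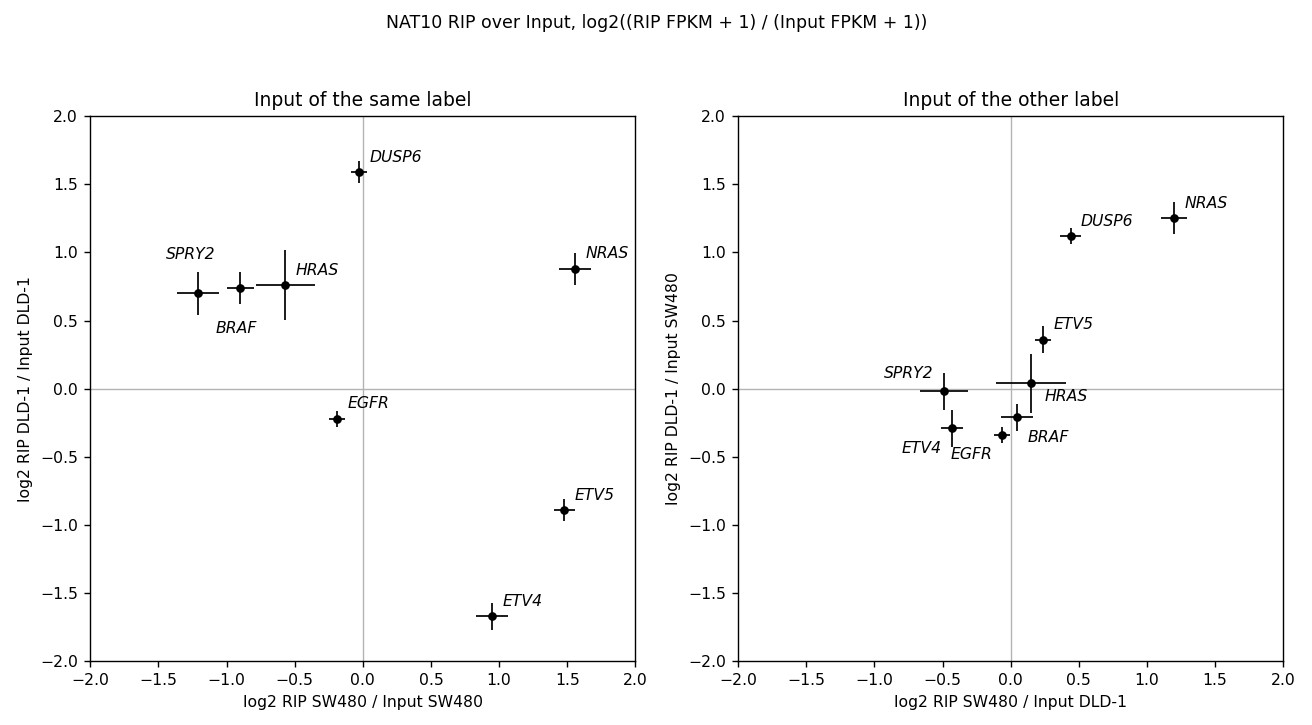
log2 ratio of NAT10 RIP to Input for the 8 genes, with the library labelled RIP SW480 on the horizontal axis and RIP DLD-1 on the vertical axis, against the Input of the same label (left) and of the other label (right), with bars of 95% counting error. On the left 6 genes lie in quadrants of opposite sign, and on the right the genes other than NRAS and DUSP6 lie within 0.5 of 0 on both axes.

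Counted over the 8 genes, 2 (NRAS and ETV5) were at least 2-fold above Input with the SW480 labels, where 15.6% of the 12324 genes tested were, and 1 (SPRY2) was at least 2-fold below, where 16.0% were. With the DLD-1 labels 1 (DUSP6) was at least 2-fold above, where 15.1% of all genes were, and 1 (ETV4) was at least 2-fold below, where 19.2% were. The median log2 ratio of the 8 genes was -0.11 with the SW480 labels and 0.72 with the DLD-1 labels, beside 0.05 and -0.05 over all genes. Against the other label's Input the medians were 0.10 and 0.01 for the 8 genes, beside 0.02 and -0.00 over all genes. There, NRAS was at least 2-fold above in both RIP libraries, DUSP6 in RIP DLD-1, and 0 of 8 were at least 2-fold below. Of all 12324 genes tested, 1139 were above and 1448 below in RIP SW480 against the other label's Input. In RIP DLD-1, 1154 were above and 1456 below.

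The sign of the ratio was opposite under the SW480 and DLD-1 labels for 6 of the 8 genes (HRAS, BRAF, DUSP6, SPRY2, ETV4 and ETV5), where 43.6% of all genes tested had opposite signs, although DUSP6 with the SW480 labels lay within counting error of 0. Against the other label's Input, 1 of 8 (BRAF) had opposite signs, where 18.3% of all genes did. The level in RIP SW480 was nearer to Input DLD-1 than to Input SW480 for 7 of 8 genes, all but DUSP6, where 59.2% of all genes were. The level in RIP DLD-1 was nearer to Input SW480 than to Input DLD-1 for 6 of 8, all but NRAS and EGFR, where 61.9% of all genes were. The line order of the RIP libraries was opposite to that of the Inputs for 7 of 8 genes, all but EGFR, where 74.0% of all genes had opposite orders. For ETV4 the SW480 minus DLD-1 difference was -1.38 in the Inputs and 1.24 ± 0.05 in the RIP libraries, and for ETV5 it was -1.25 and 1.12 ± 0.03. For DUSP6 it was 0.47 in the Inputs and -1.15 ± 0.02 in the RIP libraries, and for SPRY2 0.72 and -1.19 ± 0.07.

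**Figure D3:**
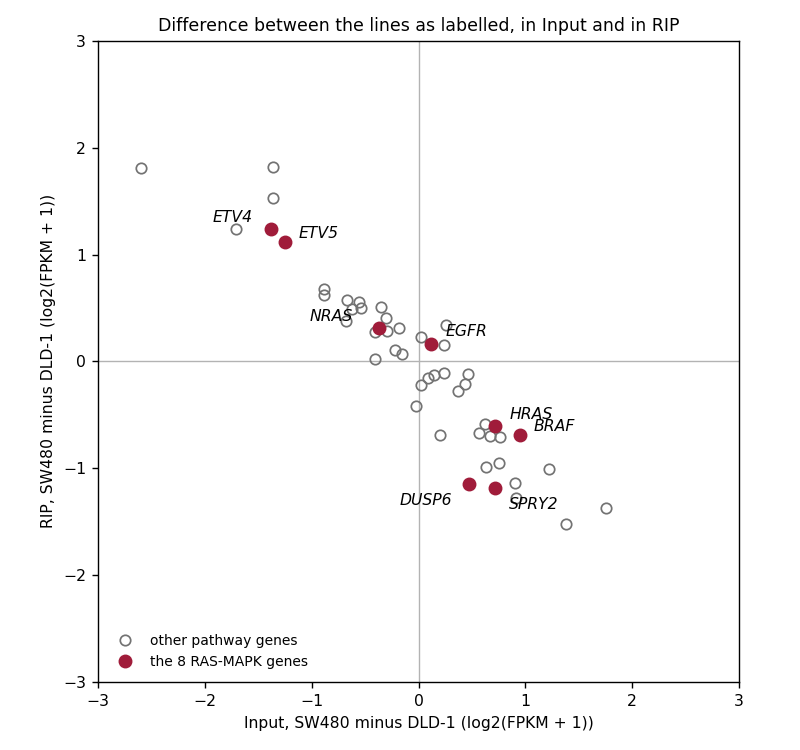
Difference between the lines as labelled (SW480 minus DLD-1, log2(FPKM + 1)) in the Input libraries on the horizontal axis and in the RIP libraries on the vertical axis, for the 8 genes (filled) and 42 other genes of the pathway (open), 1 point per gene. Of the 8 genes, 7 lie in the quadrants where the sign is opposite, with ETV4 and ETV5 at the upper left and EGFR near the centre.

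The main test took SW480 and DLD-1 as replicates, 2 RIP against 2 Input libraries, and did not use which RIP belongs to which Input. With limma across all 12324 genes and Benjamini-Hochberg adjustment, 103 genes (0.836%) were called higher and 366 (2.97%) lower in RIP. None of the 8 genes was called, and 1 of 8, NRAS, had an unadjusted p under 0.05, where 10.6% of all genes had one with RIP higher and 12.4% with RIP lower. NRAS had a log2 difference of 1.22 ± 0.29 (SE) and an adjusted p of 0.0991, which ranged from 0.0661 to 0.422 over the alternatives tried. The lowest came with the acRIP-table Inputs as given (log2 difference 1.28 ± 0.26). With those Inputs scaled, the difference was 0.74 ± 0.27 and the adjusted p 0.256. DUSP6 followed with 0.78 ± 0.46 and an adjusted p of 0.395. The adjusted p of the other 6 genes lay between 0.666 and 0.948, with differences from -0.36 ± 0.65 for ETV4 to 0.30 ± 0.59 for ETV5. With the line as a block, 0 genes were called higher and 11 lower across the table.

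To locate ac4C on these transcripts, the peaks called from acRIP over Input in each line were mapped to the 8 genes (GRCh38 coordinates, positions counted from 1). A peak was listed for NRAS, HRAS, EGFR and ETV5 in SW480, or 4 of 8 genes, where 44.2% of all genes tested had one. NRAS, HRAS and EGFR had a peak in DLD-1, or 3 of 8, where 48.8% of all genes did, and the same 3 had one in both lists, where 34.4% did. BRAF, DUSP6, SPRY2 and ETV4 had no peak in either list or in the list called on both lines together. The SW480 list held 4 peaks on the 8 genes and the DLD-1 list 16, of 9536 and 13964 peaks in all. All 4 in SW480 and 13 of 16 in DLD-1 were annotated to the 3′-UTR, which took 53.0% and 41.5% of all peaks.

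NRAS had 1 peak in SW480 and 8 in DLD-1. The SW480 peak covered 150 bases of the 3′-UTR at chr1:114704648-114704797, with a fold enrichment of 20.8. It lay wholly inside a DLD-1 peak of 449 bases at chr1:114704618-114705066, with a fold of 92.8. In DLD-1, 6 further peaks stood in the 3′-UTR, the strongest at chr1:114706200-114706559 with a fold of 145. The last spanned 3 blocks of coding sequence between 114709645 and 114716086, with a fold of 48.4. Together the DLD-1 peaks of NRAS covered 2128 bases. Of the genes with a peak in DLD-1, 0.532% had 8 or more. The weakest by p-value, at chr1:114707574-114707693, had a fold of 6.29 and a false discovery rate of 0.965. NRAS, with a peak in both lines, was also the gene with both RIP libraries above both Inputs.

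HRAS had 1 long peak in each line. In SW480 the peak ran over 5 blocks and 987 bases from 532272 to 534261 on chromosome 11, with a fold of 179, and in DLD-1 over 5 blocks and 1047 bases from 532272 to 534321, with a fold of 130.0. All 987 bases of the former lay inside the latter. The peak began near the 3′ end of the gene and ran upstream across introns, and was classed to the 3′-UTR in SW480 and to the stop codon in DLD-1. Peaks of 5 or more blocks made up 0.902% of the SW480 list and 3.34% of the DLD-1 list, and the median fold of all peaks was 19.5 and 14.6. Each HRAS peak held 8 sites of the motif in which a C recurs every 3 bases over 12 bases, as the peak lists give it. Peaks with 8 or more sites made up 1.52% and 1.60% of the lists. These shares are over peaks of all lengths, with a median of 210 bases in SW480 and 211 in DLD-1 and a mean of 1.33 sites in each. The HRAS peaks were much longer than these medians, and site counts were not compared among peaks of like length. Of the RAS genes, HRAS thus had the stronger peak in SW480 by fold, while in DLD-1 the strongest peak of NRAS, with a fold of 145, was above that of HRAS.

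EGFR had 1 peak in SW480 and 7 in DLD-1. The SW480 peak covered 300 bases near the 3′ end of the gene at chr7:55211089-55211388, with a fold of 44.8. It overlapped the DLD-1 peak at chr7:55211089-55211269 over 181 bases, where the fold was 15.3. The strongest DLD-1 peak, at chr7:55210430-55210789, had a fold of 63.7 and no counterpart in SW480. Of the 7 peaks in DLD-1, 6 were in the 3′-UTR and 1, with a fold of 7.47, was in coding sequence at 55156588 to 55156866. Of the genes with a peak in DLD-1, 1.23% had 7 or more. These peaks were called on a transcript whose RIP level was below its RIP-table Input level with either label.

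ETV5 had a peak in the SW480 list at chr3:186046547-186046667, with a fold of 7.29, a p-value of 0.0290 and a false discovery rate of 0.914. It was absent from the DLD-1 list and from the list called on both lines together. At a false discovery rate under 0.05, 3 of the 8 genes kept a peak in each line. Of the 4 peaks in SW480, 3 overlapped a peak in DLD-1 by at least 1 base, beside 55.3% of all SW480 peaks, and 3 of the 16 in DLD-1 overlapped one in SW480, beside 36.5% of all DLD-1 peaks. A site of the C-rich motif was listed in 2 of 4 peaks in SW480 and in 9 of 16 in DLD-1, beside 56.2% and 55.1% of all peaks. Each list rests on 1 library, and the number of peaks a gene has in a list also moves with how much was called.

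**Figure D4:**
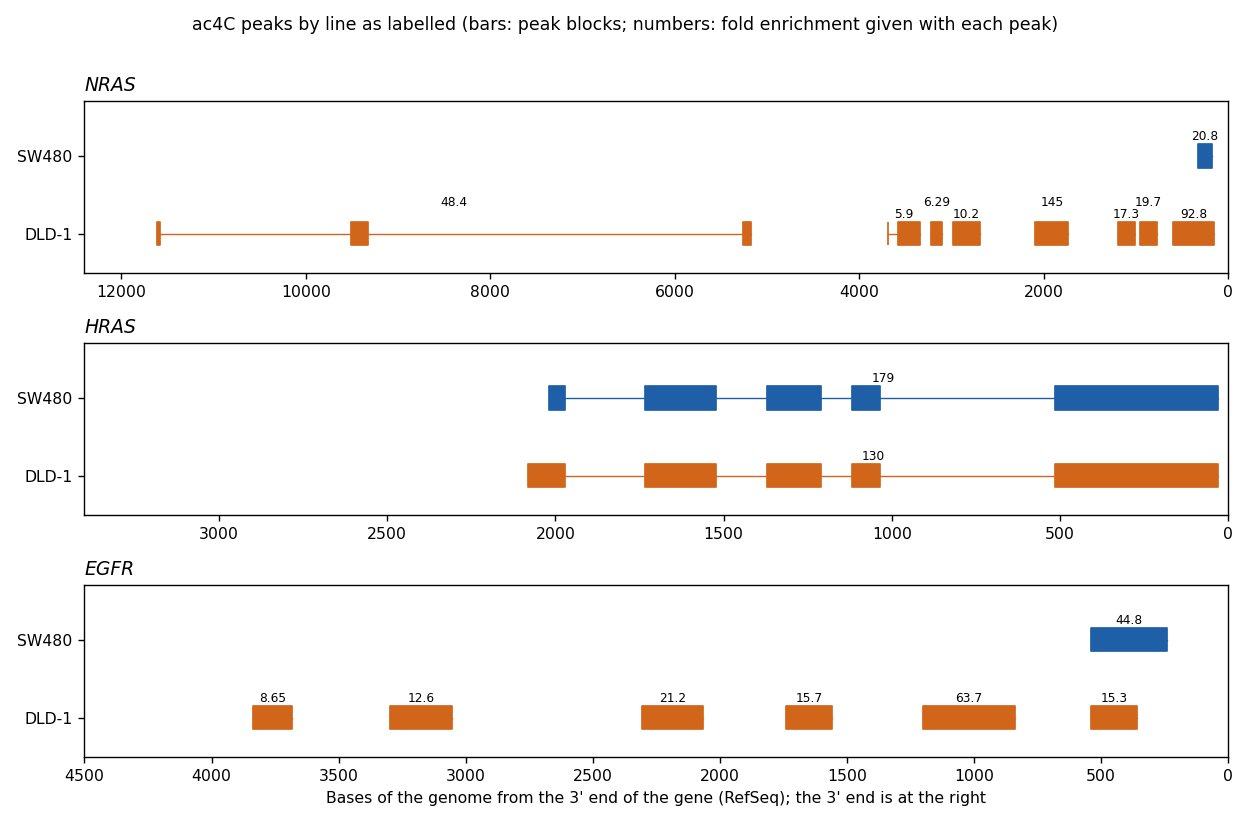
ac4C peaks on NRAS, HRAS and EGFR in the lists labelled SW480 (blue) and DLD-1 (orange), as bars for the peak blocks, joined by thin lines across introns, against the distance in bases from the 3′ end of the gene, with the fold enrichment of each peak above it. HRAS has 5 blocks in both lists, NRAS and EGFR have 1 short peak in SW480 and a row of peaks in DLD-1, and the coding peak of EGFR lies outside the range drawn.

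Other genes of the pathway were examined by role. Of 48 genes listed, all were found and 42 passed the Input filter. With the SW480 labels 5 were at least 2-fold above Input and 6 at least 2-fold below, beside 15.6% and 16.0% of all genes tested. With the DLD-1 labels 9 were above and 9 below, beside 15.1% and 19.2%. The median log2 ratios of the 42 genes were -0.06 and -0.23. With the labels crossed, RIP SW480 had 2 above and 3 below, and RIP DLD-1 had 3 above and 2 below, with medians of -0.12 and -0.10. Of all 12324 genes tested, 1139 were then above and 1448 below in RIP SW480, and 1154 and 1456 in RIP DLD-1. The same all-gene shares and counts are the background for each count by role below. The sign was opposite under the SW480 and DLD-1 labels for 27 of 42 genes, beside 43.6% of all genes tested. Against the other label's Input it was opposite for 10 of 42, beside 18.3%. The level in RIP DLD-1 was nearer to Input SW480 for 38 of 42 genes, beside 61.9% of all genes tested. That in RIP SW480 was nearer to Input DLD-1 for 24 of 42, beside 59.2%. The line order in RIP was opposite to that in Input for 38 of 42 genes, beside 74.0% of all genes tested. The acRIP-table Inputs had the opposite order for 4 of 42, beside 16.8%.

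The EGFR ligands were above Input with the DLD-1 labels, at least 2-fold for 5 of 5 tested, beside 15.1% of all genes tested. With the SW480 labels 1 of 5 was so, beside 15.6%. With the labels crossed, 2 of 5 were so in RIP DLD-1 and 1 of 5 in RIP SW480, and HBEGF, chosen after its values were seen, was at -0.12 in RIP DLD-1. AREG (amphiregulin) had 318 and 371 FPKM in RIP SW480 and RIP DLD-1, against 157 and 154 FPKM in the Inputs, with log2 ratios of 1.01 and 1.26, and of 1.04 and 1.23 against the other label's Input. AREG thus resembled NRAS in having both RIP libraries above both Inputs. EREG (epiregulin) had 86.4 and 212 FPKM in RIP against 98.2 and 51.7 FPKM in the Inputs, with log2 ratios of -0.18 and 2.02 by label and 0.73 and 1.10 against the other label's Input, and shared with DUSP6 a high level in RIP DLD-1. EGF, the ligand that gave the receptor its name, did not pass the Input filter and was chosen after its values were seen. It had 8.20 FPKM in RIP SW480 and 5.78 FPKM in Input DLD-1, but 0 in Input SW480 and 0.0814 FPKM in RIP DLD-1. In the acRIP table EGF was listed at 0 in the Input labelled SW480 and stood at 4.10 FPKM in that labelled DLD-1.

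With the SW480 labels, 0 of 4 tested receptors related in function to EGFR were at least 2-fold above Input and 1 was below. Of all genes tested, 15.6% were above and 16.0% below. With the DLD-1 labels 1 receptor was above and 0 were below, beside 15.1% and 19.2%. With the labels crossed, none of the 4 was 2-fold apart. ERBB3, a partner of EGFR-family receptors, had log2 ratios of -1.76 and 1.37 by label, but 0.00 and -0.39 against the other label's Input. MET, the receptor of hepatocyte growth factor, had -0.33 and 0.33 by label and 0.05 and -0.05 against the other label's Input. Of the 6 adaptors and exchange factors, which link receptors to RAS, 1 was above and 1 below with the SW480 labels, and 0 above and 1 below with the DLD-1 labels. None of the 6 was so against the other label's Input. SHC1 had ratios of 1.85 and -1.04 by label and 0.49 and 0.32 against the other label's Input, and the phosphatase PTPN11 0.40 and 0.32, and 0.65 and 0.06.

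Closer to RAS, neither of the related GTPases tested was at least 2-fold apart with the SW480 labels, and RRAS was below with the DLD-1 labels. RRAS had ratios of -0.43 and -1.54 by label and -1.05 and -0.92 against the other label's Input, and RRAS2 of 0.83 and 0.59, and 0.66 and 0.75. The GTPase-activating proteins, which switch RAS off, and the kinases of the cascade stayed within 2-fold of Input, 0 of 3 and 0 of 7 being 2-fold apart with either label or against the other label's Input. By label, NF1 had ratios of -0.28 and 0.31, RASA1 of 0.01 and 0.26 and MAP2K2 of 0.24 and -0.82. These were 0.19 and -0.15, 0.10 and 0.16, and -0.44 and -0.14 against the other label's Input. An ac4C peak was listed for 4 of the 7 kinases in SW480 and 5 in DLD-1, beside 44.2% and 48.8% of all genes tested. BRAF had none.

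Of 3 other ERK phosphatases tested, 1 was above Input with the SW480 labels and 1 below with the DLD-1 labels, by at least 2-fold. None of the 3 was so with the labels crossed. DUSP4 was high and low in the same libraries as ETV4 and ETV5, with 12.5 FPKM in RIP SW480 and 20.2 FPKM in Input DLD-1, against 2.51 in Input SW480 and 2.85 in RIP DLD-1, with log2 ratios of 1.95 and -2.46 by label and -0.65 and 0.14 against the other label's Input. DUSP5 had 0.11 and -0.31, and -0.29 and 0.10. In the Inputs, all 3 of these phosphatases were lower with the SW480 label, unlike DUSP6, and of the Sprouty and Spred genes 3 were higher and 1, SPRY4, lower. Of 4 other Sprouty and Spred inhibitors, 1 was above and 1 below with the SW480 labels, and 2 above and 1 below with the DLD-1 labels, but none against the other label's Input. SPRY4, a Sprouty inhibitor like SPRY2, had 22.7 and 9.03 FPKM in RIP and 8.28 and 29.3 FPKM in the Inputs, with ratios of 1.35 and -1.59 by label and -0.35 and 0.11 against the other label's Input, so that it was high where SPRY2 was low. SPRED2 had -0.67 and 0.54, and -0.05 and -0.08. Of the 8 transcription factors and early targets tested, 1 was above and 2 below with the SW480 labels, beside 15.6% and 16.0% of all genes. With the DLD-1 labels 1 was above and 5 below, beside 15.1% and 19.2%. When the labels were crossed, 1 was above and 2 below in either RIP library. EGR1 had ratios of -1.91 and -1.03 by label and -1.72 and -1.22 against the other label's Input, and IER3 of -0.40 and -1.44, and -0.94 and -0.90. All 8 of these genes had an ac4C peak in both lists, where 34.4% of all genes tested did, unlike ETV4, which had none. Over the 42 genes, 25 had a peak in SW480 and 29 in DLD-1, beside 44.2% and 48.8% of all genes tested.

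Among the 8 genes the patterns over the 4 RIP-table columns were nearest for HRAS and BRAF, at a distance of 0.24 on the log2(FPKM + 1) scale after each gene was centred on its mean, followed by BRAF and SPRY2 at 0.43, HRAS and SPRY2 at 0.54 and ETV4 and ETV5 at 0.67. DUSP6 and ETV4 were furthest apart at 2.42. Among 10342 protein-coding genes, the nearest to each were CIB1 for NRAS (0.05), BBX for HRAS (0.03), APBB2 for BRAF (0.06), EIF2AK4 for EGFR (0.03), C6orf141 for DUSP6 (0.14), HFE for SPRY2 (0.08), TGFB1 for ETV4 (0.10) and THYN1 for ETV5 (0.02). With 4 columns such near matches can be had for most patterns, and DUSP6 was the one whose nearest gene lay furthest.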

How the data were processed

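Values of 8 genes were taken from the deposited tables of 6 libraries, 1 per group. According to the submitters' processing notes, cutadapt 2.5 and HISAT2 2.1.0 were used, with GRCh38 and hg38 as human builds. The counting tool, strand setting, treatment of multiply mapped reads and peak caller are not given in the sources used here. The deposited FPKM values were used as given, and the acRIP table, which does not name its unit, was read as FPKM from its column sums. The authors' peak lists, 1 per line and 1 for both, give a p-value (deposited as score), a false discovery rate, a fold enrichment ratio and a number of motif sites. The 3 ratio columns of the authors, RIP over Input per line and their average, were not used.

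Ratios were log2((RIP FPKM + 1)/(Input FPKM + 1)) for genes with an Input of at least 1 FPKM in both lines. For each gene, the lowest set of integer reads in proportion to its 4 FPKM values of the RIP table was solved (tolerance 0.001), which succeeded for 23506 of 23515 genes, and these reads are lower bounds, so that counting errors are at most those given. They cover counting error only, and reads without molecular identifiers are not independent molecules. limma 3.58.1 (R 4.3.3) was run with a trended prior and Benjamini-Hochberg adjustment over all genes tested, threshold 0.05. The labels do not say that libraries came from separate cultures, so p-values measure only the spread between these libraries. Read recovery and the limma fit were tried on simulated data. The limma simulation held no difference between the lines, so it does not show how the fit behaves on these data. Peaks were assigned by gene identifier and compared block by block on the same strand, from 1 shared base. Starts were raised by 1, since 21 peak starts met a RefSeq gene start after this shift and 1 without it. The 8 genes, the pathway lists by role, with the 2 highest mean Inputs named per role (1 kinase is not reported here), and the markers were chosen with earlier results of these data known. Peak sequences are not printed because no genome was at hand.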

Additional observations from a re-analysis of the deposited data

Results flagged for a closer look

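For 6 genes the log2 ratio of RIP to Input was positive with the labels of one line and negative with those of the other, and the difference between the lines was not tested because each group had 1 library. The ratio with the SW480 labels minus that with the DLD-1 labels was -1.33 for HRAS, -1.64 for BRAF, -1.62 for DUSP6, -1.90 for SPRY2, 2.62 for ETV4 and 2.37 for ETV5. Among all genes tested 43.6% had opposite signs. Against the other label's Input the sign was opposite for BRAF alone of the 8 genes, at 0.05 and -0.21. The value of DUSP6 with the SW480 labels, -0.03 ± 0.03, was within counting error of 0.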

How the results depend on the processing

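With 1 library per group, counts of genes and ratios per line have no replicate error, depth limits only the counting error, and a difference between lines cannot be told apart from one between libraries. Against the Input of the other label, those of the 8 genes at least 2-fold above Input went from 2 to 1 in RIP SW480. In RIP DLD-1 they went from 1 to 2, and those below went from 1 to 0 in either. Over all 12324 genes tested, those above went from 1926 to 1139 in RIP SW480 and from 1862 to 1154 in RIP DLD-1. Those below went from 1977 to 1448 and from 2369 to 1456. With the other label's Inputs from the acRIP table, scaled and chosen after seeing the data, all 4 counts of the 8 genes were 0. Of all genes tested, 1456 were then above and 1252 below in RIP SW480, and 1496 and 1267 in RIP DLD-1. Centring on protein-coding genes gave 2 of the 8 below with the SW480 labels, where 2401 of all genes tested were. With a pseudocount of 0.1, 1 gene, BRAF, was at least 2-fold higher in Input SW480, where 1219 of all genes tested were. The RIP libraries in place of the Inputs, also chosen after seeing the data, gave 2 higher and turned ETV4 to 1.24 and ETV5 to 1.12. Peaks with a p-value under the list median left 2 genes in SW480, HRAS and EGFR. The signs of the 16 ratios were kept with a pseudocount of 0.1, with no Input filter, with centring and with the same label's Inputs from the acRIP table, but 9 of 16 were kept with the Input of the other label and 11 of 16 with its acRIP-table value. The Input differences kept 8 of 8 signs except with the RIP libraries, where 1 of 8 was kept.

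The limma calls across all genes, 103 higher and 366 lower, became 0 and 11 with pairing by line as a block (451 and 1070 at an unadjusted p under 0.05), 157 and 608 with a pseudocount of 0.1, 0 and 0 with no Input filter over 29953 genes (2055 and 1567 unadjusted), 432 and 226 with the acRIP-table Inputs as given, and 55 and 152 with these scaled to the RIP-table Inputs, both chosen after seeing the data. Leaving out 1 library at a time gave 1 to 3 higher and 25 to 576 lower, where the lone library is taken to vary like the other group. Without RIP SW480 the counts were 2 and 25, without RIP DLD-1 3 and 57, without Input SW480 1 and 576, and without Input DLD-1 1 and 566. None of the 8 genes was called in these fits. The direction of EGFR against the acRIP-table Inputs turned with their scaling, from 0.25 ± 0.23 as given to -0.31 ± 0.22. With these Inputs as given, all 8 genes had a positive difference. Across all 12324 genes tested, 3399 were then higher and 639 lower at an unadjusted limma p under 0.05. With the RIP-table Inputs these counts were 1307 and 1523. The cause of these changes was not tested. The replicate numbers name libraries only, and the block is the line as labelled, under which the RIP and Input libraries did not pair.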
